A study of Mus musculus with 3 samples.

Results

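Single cells in which transcripts of Elane, the gene of neutrophil elastase, made up at least 70 of every 10000 unique molecular identifiers (UMIs) are described here. They numbered 144 of 21251 mouse bone marrow cells in 3 libraries. They are set against 1934 moderate cells, in which Elane, Ctsg and Ms4a3 together reached at least 20 UMIs per 10000 while Elane stayed below 70, and against the other 19173 cells. The very high cells were chosen by their Elane counts and the moderate cells by those of Elane, Ctsg and Ms4a3, so the levels of these 3 genes are given as a description only. The cells were sorted as LSK, cells without lineage markers that carry Sca-1 and Kit on their surface, among which are the blood stem cells and early progenitors. The KO library came from mice with both copies of Spop deleted and Myd88 intact, the DKO library from mice with Spop deleted and Myd88 absent, and the WT library from mice with both genes intact. SPOP picks the substrates of a ubiquitin ligase built on CUL3, and MyD88 relays signals from Toll-like receptors and from those of interleukin-1. There was 1 droplet library per genotype. What drives the deletion of Spop, the age of the mice and the number of mice behind a library are not given in the sources used here.

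Promyelocytes are the stage of neutrophil development at which primary (azurophil) granules are filled with the serine proteases elastase, proteinase 3 and cathepsin G and with myeloperoxidase. Transcripts of these proteins are made first, transcripts of secondary granule proteins such as lactoferrin and cathelicidin follow at the myelocyte stage, and calprotectin (S100A8 with S100A9) accumulates as the neutrophil matures. The transcription factor C/EBPε is known to drive the step from primary to secondary granule genes, while IRF8 directs progenitors towards monocytes and dendritic cells.

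Levels are given as UMIs per 1000000 UMIs (CPM) in counts summed over the cells of a class in a library, and values of single cells as UMIs per 10000 UMIs of the cell. With 1 library per genotype no test was made. All 95% intervals cover counting error only, and cells of 1 library share their source. The very high cells held 3606251 UMIs in KO (median 40598 per cell, range 8744 to 57597), 941941 in DKO (median 28305) and 343153 in WT (median 21430), so KO values are the most precise. A count of 0 in these cells allows up to 3 counts, or 0.832 CPM in KO, 3.19 CPM in DKO and 8.74 CPM in WT. Median UMIs were 32864, 20418 and 16370 in moderate cells of KO, DKO and WT, and 14438, 12028 and 9192 in the other cells. Myd88 stood at 31.6 CPM in KO, 7.43 in DKO and 14.6 in WT very high cells, and Spop at 63.0, 67.9 and 75.8 CPM. The part of Spop that was deleted is not given and the tags are from the 3' end, so the Spop level checks nothing. Of 183 cell barcodes that occurred in more than 1 library, 2 belonged to very high cells, and neither was shared with another very high or moderate cell.

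Elane lies on mouse chromosome 10 at 79886247 to 79888215 (plus strand, GRCm38, GENCODE vM21). Prtn3, the gene of proteinase 3, precedes it on the same strand at 79874476 to 79883174. The start-site windows of this pair are shown because their transcripts were high in the same cells. Each window runs from 250 bases before to 50 bases after the start in RefSeq on GRCm38.p6, at chr10:79886062-79886361 for Elane and chr10:79879417-79879716 for Prtn3, both on the plus strand. Capitals mark matches on either strand to GAGGAA, a core bound by PU.1, or AACNGNC, a core bound by MYB.
Elane: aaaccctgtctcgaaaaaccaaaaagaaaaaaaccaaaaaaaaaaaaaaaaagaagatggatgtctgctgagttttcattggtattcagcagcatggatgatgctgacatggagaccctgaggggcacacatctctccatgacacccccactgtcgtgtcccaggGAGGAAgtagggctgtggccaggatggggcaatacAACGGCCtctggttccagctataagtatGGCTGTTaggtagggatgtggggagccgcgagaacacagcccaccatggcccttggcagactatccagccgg
Prtn3: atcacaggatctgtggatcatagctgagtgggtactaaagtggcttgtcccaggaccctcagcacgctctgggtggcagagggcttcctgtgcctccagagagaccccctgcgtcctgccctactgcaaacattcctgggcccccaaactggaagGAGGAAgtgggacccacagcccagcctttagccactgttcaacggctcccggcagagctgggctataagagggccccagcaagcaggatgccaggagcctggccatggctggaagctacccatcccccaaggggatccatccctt
Positions are those of the first base of a match relative to the start. The Elane window held GAGGAA at -85 and AACNGNC, once on each strand, at -50 and -22. The Prtn3 window held GAGGAA at -95 and no AACNGNC. Across all 32851 mouse windows of this length, 28.3% held GAGGAA, 32.8% held AACNGNC and 10.8% held TTGCNNAA, a core bound by C/EBP factors. Of 20 listed primary granule genes, 16 had a window in the table. Among these 16, GAGGAA was found for 9 genes, AACNGNC for 7 and TTGCNNAA for 4. These matches are descriptions of letters, not of binding, and matches to the different motifs did not overlap in the windows shown.

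The very high cells made up 92 of 4920 cells in KO (1.87%, Clopper-Pearson interval 1.51 to 2.29), 35 of 8184 in DKO (0.428%, 0.298 to 0.594) and 17 of 8147 in WT (0.209%, 0.122 to 0.334). The moderate cells made up 27.8% of KO, 5.69% of DKO and 1.252% of WT. The very high cells were thus the largest share in KO and the smallest in WT, and the intervals of KO did not overlap those of DKO or WT. Among cells that met either definition, the order was the reverse. Very high cells were 6.31% of these in KO (5.12 to 7.68), 6.99% in DKO (4.91 to 9.58) and 14.3% in WT (8.55 to 21.9), with overlapping intervals between KO and DKO and between DKO and WT. Of cells with at least 20 Elane UMIs per 10000, 92 of 598 were very high in KO (15.4%), 35 of 86 in DKO (40.7%) and 17 of 34 in WT (50%).

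Elane per 10000 in the very high cells had a lowest, median and highest value of 70.1, 97.1 and 219 in KO, 71.9, 138 and 311 in DKO and 76.6, 116 and 273 in WT. Cells of at least 200 numbered 3 in KO, 10 in DKO and 2 in WT. The highest values were thus in DKO, although KO had the most cells. The 3 cells just inside the threshold had 70.12, 70.34 and 71.27 Elane UMIs per 10000, and the 3 just outside had 69.95, 69.61 and 68.93, all in KO. Cebpe stood at 0.911, 1.31 and 0.762 UMIs per 10000 in those inside and at 1.44, 2.26 and 0 in those outside, so the threshold lay within a continuous range. The cells of the KO library filled this range without a gap, as the plot of Elane by library shows.

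**Figure D1:**
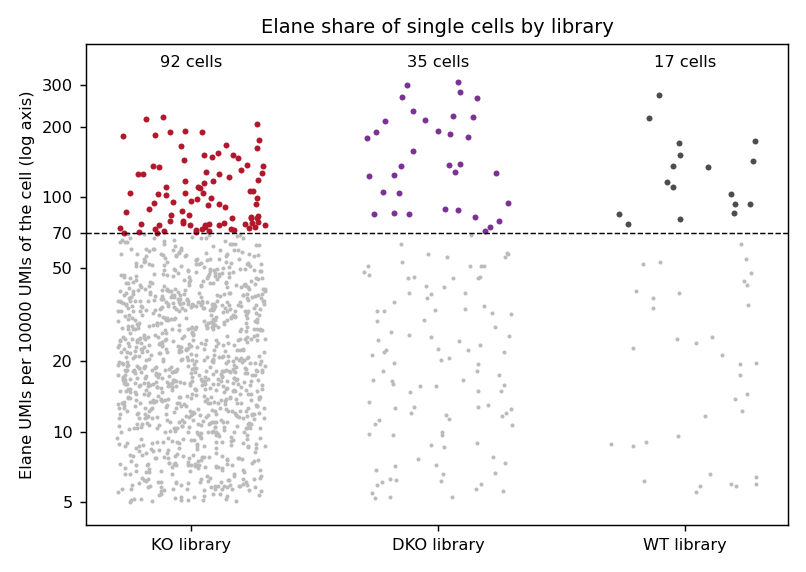
Elane UMIs per 10000 UMIs of each cell (vertical, log axis) for cells with at least 5, by library, with the threshold of 70 dashed. Coloured points are the 92 KO, 35 DKO and 17 WT very high cells, and grey points are cells below the threshold.

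The label of promyelocyte-like cells was set beside Cebpe, Cd63 and Nkg7, which the rule did not use. These markers were chosen with earlier results of these data known, so their levels are a description and not an independent check. Cebpe stood at 192 CPM in very high cells and 26.8 CPM in moderate cells of KO, a 7.15-fold difference (6.50 to 7.86). In DKO it stood at 296 against 18.2 CPM, and in WT at 303 against 24.6 CPM. Cd63, a membrane protein of primary granules and lysosomes, stood at 841 against 158 CPM in KO, 921 against 246 in DKO and 854 against 205 in WT. Nkg7, a granule membrane protein of killer lymphocytes that myeloid progenitors also transcribe, stood at 1563 against 435 CPM in KO, 1520 against 492 in DKO and 1396 against 445 in WT. In summed counts all 3 markers were higher in very high than in moderate cells in all 3 libraries. Some very high cells of KO and DKO had no Cebpe UMI. After thinning every cell to 5000 UMIs, a Cebpe UMI was found in 51.1% of the KO very high cells (40.4 to 61.7), 10.5% of moderate cells and 0.614% of 978 erythroid-like cells, which should lack it. Before thinning the share in very high cells was 91.3%. The median depth of the erythroid-like cells was 14968 UMIs. They were taken from outside the very high and moderate classes, so cells rich in Elane, Ctsg and Ms4a3 were left out of them. The name rests on transcripts alone.

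Across the KO transcriptome, few genes separated very high from moderate cells. Of 2426 genes with a mean of at least 50 CPM over the pair, 53 were at least 2-fold higher in very high cells (2.18%) and 16 at least 2-fold lower (0.66%). The median log2 ratio was -0.06. The highest ratios were those of S100a8 and S100a9, Wfdc21 (a whey acidic protein family gene), Cebpe, Pglyrp1 (an antibacterial peptidoglycan recognition protein of neutrophil granules) and Cd63. They were followed, Elane aside, by Gstm1, Fcgr3, Mgst2, Ptgr1, Cldn15, B4galt6, Nkg7 and Dstn. The lowest ratios were those of Irf8, Cd34, Sox4, Ifitm1, Ccr2, Ms4a6c, Cisd1 and S100a10, followed by Tmsb10, Samsn1, Fabp5, Hmgn1, Lgals1, Emb and Ifitm3. Among the higher genes, Gstm1 and Mgst2, enzymes that conjugate glutathione, stood at 644 and 111 CPM in very high cells and at 143 and 27.7 CPM in moderate cells. Ptgr1, a reductase of prostaglandins and leukotriene B4, stood at 145 against 37.0 CPM. Dstn, an actin-depolymerizing protein, stood at 571 against 162 CPM. Cldn15, a claudin, stood at 124 against 32.1 CPM, and the galactosyltransferase gene B4galt6 at 132 against 34.4 CPM.

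Of 20 listed genes of primary granule proteins and their partners 15 were measured. In KO very high cells 9 of these were at least 2-fold higher, 6 within 2-fold and 0 at least 2-fold lower, with a median log2 ratio of 1.20. Without Elane, Ctsg and Ms4a3, 6 of 12 were higher and the median was 1.05. Against moderate cells with at least 20 Elane UMIs per 10000 the median of the list was 0.76. Mpo, myeloperoxidase, stood at 4575 CPM in very high cells and 1987 in moderate cells (2.30-fold, 2.26 to 2.34). Srgn, the proteoglycan that packs granule proteases, stood at 2968 against 1001 CPM (2.97-fold). Prtn3 was within 2-fold, at 8520 against 4558 CPM (1.87-fold, 1.85 to 1.89). Among the genes of the rule, Elane stood at 10812 against 2062 CPM, Ctsg (cathepsin G) at 7942 against 2920 and Ms4a3, a tetraspan protein of neutrophil and basophil progenitors, at 2780 against 1252. Serpinb1a, an inhibitor of elastase and cathepsin G, stood at 660 against 227 CPM (2.91-fold), and the azurophil protease gene Prss57 at 435 against 162 CPM (2.69-fold). Genes of lysosomal enzymes on the same list differed less, with Ctsz at 360 against 367 CPM and Hexa at 113 against 91.6 CPM. Ctsc, whose product cathepsin C activates the granule proteases, was below the level minimum at 35.2 CPM in very high cells and 56.2 CPM in moderate cells. Lyz2, a lysozyme gene of monocytes and neutrophils, stood at 88.2 against 113 CPM.

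Of the genes of later neutrophil stages, those of calprotectin were the furthest from the moderate cells. S100a8 stood at 2935 CPM in KO very high cells and 48.3 CPM in moderate cells (log2 ratio 5.93), and S100a9 at 1307 against 32.1 CPM (log2 ratio 5.35). Single cells carried much of these sums. In moderate cells 1 cell gave 69.1% of the S100a8 and 84.5% of the S100a9 UMIs, and without it the log2 ratios were 7.62 and 8.03. In very high cells 1 cell gave 24.7% of the S100a8 and 45.1% of the S100a9 UMIs, and without it the log2 ratios were 5.53 and 4.50. After thinning to 5000 UMIs, an S100a8 UMI was found in 67.4% of very high cells (56.8 to 76.8), 6.52% of moderate cells and 3.58% of erythroid-like cells of KO. In DKO the thinned shares were 48.6% of very high cells (31.4 to 66.0), 13.5% of moderate cells and 15.95% of the other cells, and in WT 47.1% (23.0 to 72.2), 15.8% and 15.95%. The moderate cells of DKO and WT thus did not stand above the other cells of their libraries, whereas the very high cells did. Wfdc21 stood at 472 against 16.9 CPM (28.0-fold, 25.6 to 30.5) and the calcium-binding S100a11 at 735 against 228 CPM (3.22-fold). Of the 18 listed calprotectin and late neutrophil genes 7 were measured, 5 of them higher and 0 lower, with a median log2 ratio of 1.69.

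Secondary and tertiary granule genes were uneven in the same cells. The list summed to 2325 CPM in KO very high cells and 940 CPM in moderate cells. Ltf, lactoferrin, was found in 2 of 92 very high cells and 3 of 1366 moderate cells of KO, at 0.555 and 0.0687 CPM. Mmp8 and Mmp9, the collagenase and gelatinase genes of late granules, had 0 UMIs in KO very high cells. A UMI of Camp, cathelicidin, was found in 10 of 92 cells, of Ngp in 8 and of Chil3 in 10, and 1 cell held 91.1%, 70.2% and 88.9% of the UMIs of these genes. After thinning these shares were 4.35% (1.20 to 10.8), 3.26% (0.678 to 9.23) and 6.52% (2.43 to 13.7), against 0%, 0.409% and 0.204% in erythroid-like cells. Fcnb, ficolin B, was more widespread, in 37 of 92 very high cells (40.2%) and 22 of 1366 moderate cells (1.61%), at 52.7 and 0.687 CPM. After thinning an Fcnb UMI was found in 17.4% of very high cells (10.3 to 26.7), 0.146% of moderate cells and 0 of 978 erythroid-like cells, which allows a share of up to 0.307% by a count of 3. Of the 19 listed secondary and tertiary granule genes 5 were measured, 2 of them at least 2-fold higher and 0 lower, with a median log2 ratio of 0.94. The higher ones were Pglyrp1, at 302 against 54.7 CPM (5.52-fold), and Hp, haptoglobin, at 623 against 272 CPM (2.29-fold). The log2 ratio of Hp was 0.91 with Elane of at least 50 as the threshold. Lcn2, a siderophore-binding protein, was within 2-fold, at 251 against 147 CPM (1.70-fold). It was found in 92 of 92 very high cells, and after thinning in 65.2% of these (54.6 to 74.9), 46.9% of moderate cells and 1.02% of erythroid-like cells.

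Among transcription factors, Cebpe and Gfi1 were higher and Irf8 was lower in KO very high cells. Of 14 listed granulocyte factors 6 were measured, of which 2 were at least 2-fold higher, 4 within 2-fold and 0 lower. Gfi1, a repressor of monocytic genes, stood at 80.7 CPM in very high cells and 33.1 CPM in moderate cells (2.44-fold, 2.14 to 2.77), but its log2 ratio was 0.89 against moderate cells with at least 20 Elane UMIs per 10000. Cebpa, needed for entry into the granulocyte-monocyte lineage, stood at 95.7 against 103 CPM, and Spi1, which encodes PU.1, at 226 against 189 CPM. The 4 factors Cebpa, Spi1, Myb and Xbp1 all stayed within 2-fold. Irf8 stood at 22.2 against 119 CPM and was 5.36-fold lower (4.30 to 6.77). Its UMIs came from 14 of 92 very high cells and 949 of 1366 moderate cells. After thinning, an Irf8 UMI was found in 5.43% of very high and 34.6% of moderate cells, and in 1.94% of erythroid-like cells.

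Of 25 listed monocyte and dendritic genes 8 were measured, of which 3 were at least 2-fold lower in KO very high cells and 1 was higher. The lower ones, with Irf8, were the chemokine receptor Ccr2, at 30.8 against 103 CPM (3.34-fold lower), and Ms4a6c, at 53.5 against 169 CPM (3.16-fold lower). The higher one was Ly6c2, which encodes the Ly-6C antigen of monocytes and immature granulocytes, at 907 against 296 CPM (3.06-fold). F13a1, a monocyte gene, stood at 68.5 against 106 CPM. Csf1r, the receptor of macrophage colony-stimulating factor, and Klf4, a factor of monocyte differentiation, were below the level minimum, at 3.05 against 15.1 CPM and 0.277 against 4.55 CPM.

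Of 32 listed stem and progenitor genes 7 were measured. In KO very high cells 4 of these were at least 2-fold lower, 3 within 2-fold and 0 higher, with a median log2 ratio of -1.05. That median was -0.65 against moderate cells with at least 20 Elane UMIs per 10000. Cd34, a surface sialomucin of progenitors, stood at 37.4 against 150 CPM and was 3.99-fold lower (3.37 to 4.77). The progenitor transcription factor gene Sox4 stood at 22.7 against 80.7 CPM, 3.55-fold lower. Ifitm1 and Ifitm3, members of an interferon-induced membrane protein family, stood at 536 against 1821 CPM and at 457 against 944 CPM. The log2 ratio of Ifitm3 was -0.77 with Elane of at least 50 as the threshold. The genes of the sort markers did not move together. Ly6a, which encodes Sca-1, stood at 11.6 CPM in very high, 35.7 in moderate and 130 in the other cells, and at 34.3 CPM in the erythroid-like cells. A Ly6a UMI was found in 3.26% of thinned very high cells (0.678 to 9.23), 15.4% of moderate cells, 39.4% of the other cells and 12.9% of erythroid-like cells (10.8 to 15.2). Kit stood at 34.7, 34.4 and 47.6 CPM in very high, moderate and other cells.

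Receptor genes of the myeloid lineage were in part higher. Of 27 listed 10 were measured, of which 4 were at least 2-fold higher and 0 lower, with a median log2 ratio of 0.42. Fcgr3, the low-affinity immunoglobulin receptor CD16, stood at 157 against 35.6 CPM (4.42-fold, 4.01 to 4.87). The inhibitory lectin receptor gene Clec12a stood at 453 against 151 CPM, the interferon gamma receptor gene Ifngr1 at 222 against 103 CPM and the activating receptor gene Trem3 at 347 against 162 CPM. Against moderate cells with at least 20 Elane UMIs per 10000 the log2 ratios of Ifngr1 and Trem3 were 0.76 and 0.74, within 2-fold. Csf3r, the receptor of granulocyte colony-stimulating factor, was below the level minimum, at 39.1 against 30.7 CPM. Of 6 measured NADPH oxidase genes, which encode the phagocyte enzyme that makes superoxide, 0 reached 2-fold, while the median log2 ratio was 0.62. Ncf1, its p47-phox subunit, stood at 117 against 64.6 CPM and Cyba, p22-phox, at 432 against 229 CPM.

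Housekeeping programmes were close to those of moderate cells. Of 48 measured secretory pathway and endoplasmic reticulum genes 1 was at least 2-fold higher, the cargo receptor gene Tmed3 at 426 against 205 CPM, and 0 were lower, with a median log2 ratio of 0.39. Tmed3 had a log2 ratio of 0.86 against moderate cells with at least 20 Elane UMIs per 10000. Calr, calreticulin, stood at 2066 against 1475 CPM. Of 16 measured lysosome and vesicle genes 1 was higher, Cd63, and the median was 0.34. Of 27 ribosome biogenesis genes 0 reached 2-fold in either direction and the median was -0.28, with the nucleolar helicase gene Ddx21 at 102 against 174 CPM. The same counts of 0 were found for 72 cytosolic ribosomal protein genes (median -0.10), 51 oxidative phosphorylation genes (median -0.00), 10 glycolysis genes (median 0.15), 29 S phase genes (median -0.19), 29 G2 and M phase genes (median 0.09), 5 cyclins and their kinases (median -0.16), 8 interferon-stimulated genes (median 0.01) and 4 genes of the MyD88 pathway (median -0.10). Against the -0.06 of all genes, the lists furthest above were therefore those of granules and calprotectin, and the furthest below was the stem and progenitor list.

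The same genes were followed over the Elane range in the KO library, from moderate cells of under 20 Elane UMIs per 10000 (860 cells) through 20 to 50 (420), 50 to 70 (86) and 70 to 100 (49) to 100 or more (43). Cebpe stood at 11.98, 37.6, 99.0, 133 and 264 CPM in these 5 bins. Cd63 stood at 115, 184, 397, 522 and 1231 CPM, and Wfdc21 at 2.33, 22.4, 113, 208 and 794 CPM. All 3 were higher in each bin than in the bin before it in this library. The median over cells of S100a8 was 0, 0, 0.256, 0.938 and 17.8 UMIs per 10000. Its summed level was 7.83, 17.9, 537, 249 and 6214 CPM, where the 50 to 70 bin holds the moderate cell that gave 69.1% of the S100a8 UMIs of its class. Irf8 stood at 128, 119, 46.4, 40.4 and 0 CPM, where a count of 0 allows up to 1.85 CPM by 3 counts. Ifitm1 stood at 2133, 1453, 976, 754 and 269 CPM, and Cd34 at 183, 107, 72.6, 50.4 and 21.6 CPM. Kit stood at 34.9, 32.9, 36.3, 39.8 and 28.3 CPM, with no order over the bins. Ribosomal protein transcripts made up 32.2, 30.9, 30.2, 30.3 and 28.7% of UMIs. In DKO the bins held 415, 39, 12, 10 and 25 cells. There Wfdc21 stood at 1.232, 1.077, 0, 3.994 and 536.5 CPM, where 0 allows up to 9.436 CPM. S100a8 stood at 29.81, 25.86, 22.02, 31.95 and 4548 CPM. Both genes were thus far higher in the last DKO bin only. Irf8 stood at 107.7, 220.9, 147.8, 171.7 and 33.26 CPM, with no steady fall. Cebpe (9.856 to 341.3 CPM) and Cd63 (239 to 1084 CPM) rose from bin to bin in DKO, and Ifitm1 and Cd34 fell.

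**Figure D2:**
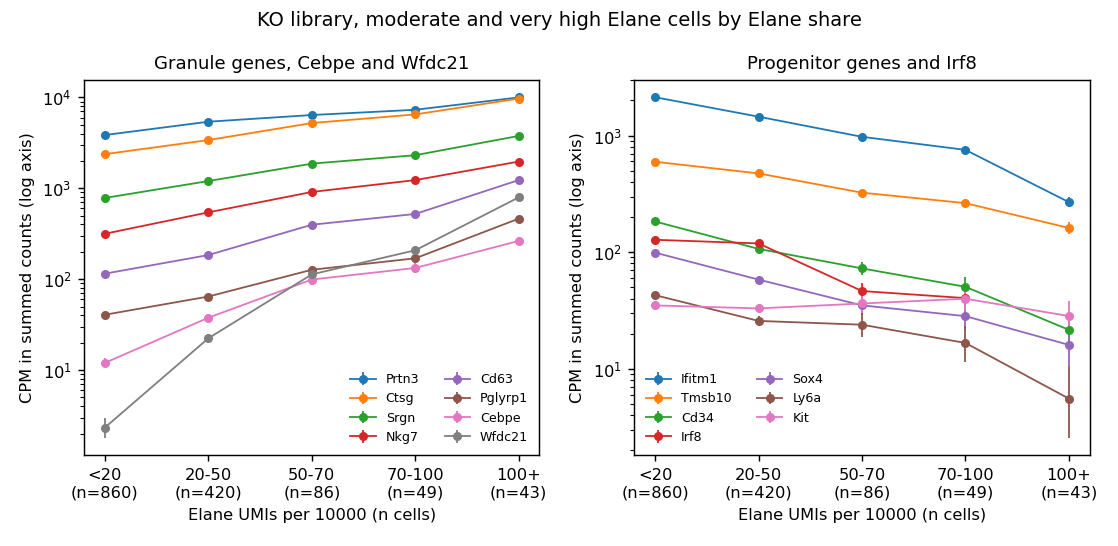
Summed CPM (vertical, log axis) of granule genes with Cebpe and Wfdc21 (left) and of progenitor genes with Irf8 (right) in KO cells by Elane UMIs per 10000, where the first 3 bins are moderate and the last 2 very high cells and bars are 95% Poisson intervals. Cebpe runs from 11.98 to 264 CPM and Ifitm1 from 2133 to 269 CPM over the bins, Kit has no order, and Irf8 in the last bin is 0 and not drawn.

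The very high cells were not uniform. S100a8 and S100a9 together reached at least 10 UMIs per 10000 in 33 of 92 KO cells (35.9%, 26.1 to 46.5), 12 of 35 DKO cells (34.3%, 19.1 to 52.2) and 6 of 17 WT cells (35.3%, 14.2 to 61.7). Among moderate cells this was so in 1 of 1366, 0 of 466 and 0 of 102, and among the other cells in 3 of 3462, 18 of 7683 and 14 of 8028. Calprotectin-rich cells outside the very high class thus outnumbered those in it in DKO and WT. The 3 highest KO cells had 1331, 778 and 290 UMIs per 10000, the 3 highest DKO cells 337, 247 and 141 and the 3 highest WT cells 348, 159 and 79.1. The calprotectin-rich cells also stood higher in Elane, with a median of 144 per 10000 against 81.4 in the remaining very high cells of KO, 227 against 105 in DKO and 162 against 93.9 in WT. In KO they held 296 against 134 CPM of Cebpe, 878 against 248 CPM of Wfdc21 and 138 against 5.59 CPM of Fcnb. Irf8 stood at 0 CPM in these 33 cells and at 34.4 CPM in the other 59, and Ifitm1 at 169 against 737 CPM. Since the split was made on 2 of the measured genes, these values are a description of the same cells. Some members, picked after their values were seen, had little Cebpe but carried Irf8 and Ly6c2. DKO cells at 71.93, 79.45, 84.96 and 105.2 Elane UMIs per 10000 held 0, 0, 0 and 0.385 of Cebpe. Their Irf8 was 4.55, 6.27, 5.96 and 6.17 and their Ly6c2 21.5, 14.1, 19.0 and 40.5. KO cells at 71.73 and 76.2 held 0 and 0.218 of Cebpe, 3.48 and 1.97 of Irf8 and 15.5 and 20.5 of Ly6c2.

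**Figure D3:**
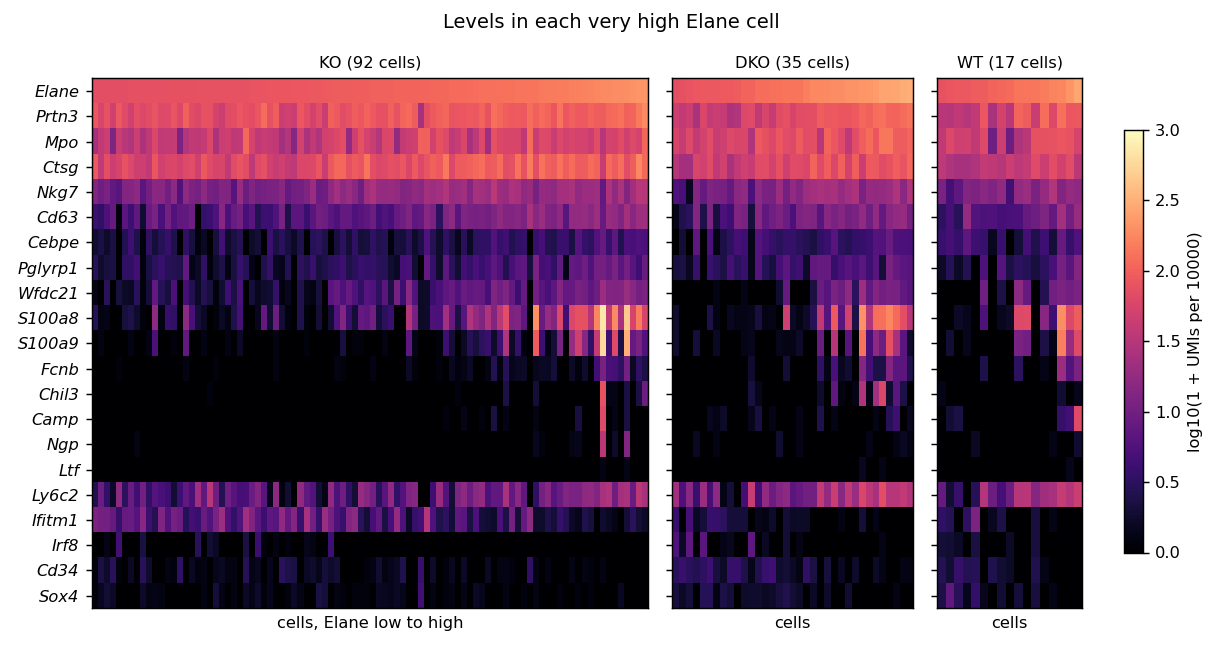
Levels of 21 genes, as log10(1 + UMIs per 10000), in each of the 92 KO, 35 DKO and 17 WT very high cells, ordered within a library from low to high Elane. S100a8, S100a9, Wfdc21 and Fcnb are brightest towards the high-Elane end of each library, Ltf is dark throughout, and Camp and Ngp are bright in single cells.

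Across the 92 KO cells, 33 of 1202 genes with at least 100 CPM had a Spearman correlation with Elane of at least 0.5 and 15 of -0.5 or below. The highest was that of Srgn (rho 0.75, Pearson r 0.74), then Wfdc21 (rho 0.74), Cd63 (0.72) and S100a8 (0.72). Prtn3 (0.68), Ms4a3 (0.67) and Ctsg (0.66) were also among the 12 highest. The lowest among genes of no ribosomal protein were Fabp5, a fatty acid binding protein (rho -0.69), Ifitm1 (-0.62), the ferritin heavy chain gene Fth1 (-0.60) and the nucleolar Npm1 (-0.58). In the 35 DKO cells Srgn (0.84), Wfdc21 (0.80), Cd63 (0.59) and S100a8 (0.83) had the same sign. The points share a library and each cell's total, which Elane enters, and the total UMIs of a KO cell had a rho of -0.11 with Elane. No p-value is given for these values.

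The KO genes were then read in the other libraries. Of the 53 genes at least 2-fold higher in KO very high cells, 50 were measured in DKO, of which 50 were higher and 46 at least 2-fold. In WT the numbers were also 50, 50 and 46. Of the 16 lower genes, 15 were measured and 15 lower in both libraries, 10 of them at least 2-fold in DKO and 11 in WT. Irf8 was among those within 2-fold in DKO, at 70.1 CPM in very high and 120 CPM in moderate cells, while in WT it stood at 32.1 against 185 CPM. Before thinning, an Irf8 UMI was found in 31.4% of very high and 62.7% of moderate cells of DKO. The background was wider in these smaller classes. The 2-fold threshold was passed upwards in DKO by 94 of 2527 genes (3.72%) and downwards by 72 (2.85%), and in WT 100 of 2390 were higher (4.18%) and 86 lower (3.6%). The moderate cells were also of another make-up there, with a median of 0.848 Elane UMIs per 10000 in DKO and 2.49 in WT, against 14.8 in KO. The part of this difference in the larger ratios of DKO and WT was not tested. In moderate cells Wfdc21 stood at 16.9 CPM in KO, 1.18 in DKO and 1.20 in WT, whereas in very high cells it stood at 472, 395 and 431 CPM.

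**Figure D4:**
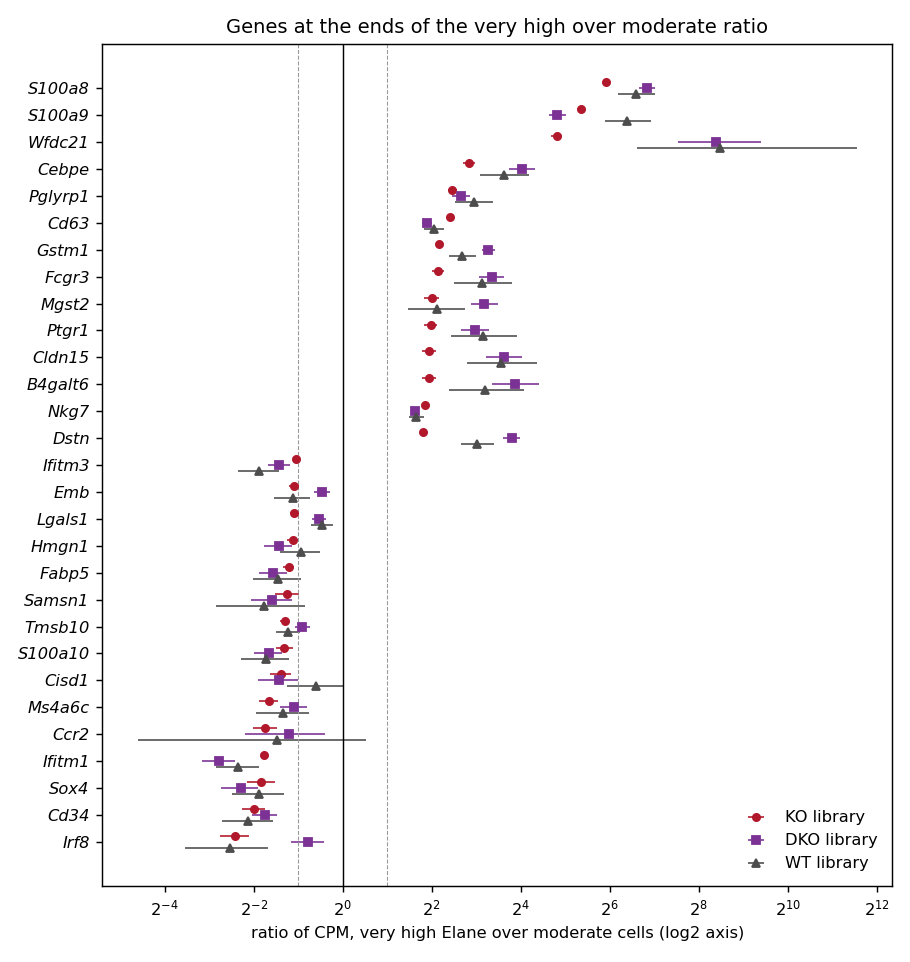
Ratio of CPM in very high over moderate cells (horizontal, log2 axis) with 95% intervals of counting error, for the genes of highest and lowest ratio in KO other than Elane, in the KO, DKO and WT libraries. Dashed lines mark 2-fold, and all points of a gene lie on the same side of 1, with Irf8 within 2-fold in DKO only among the 3 libraries.

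Genotypes were compared within the very high cells for genes with a mean of at least 200 CPM over the pair. Of 656 genes, 4 were past 2-fold upwards in KO over WT (0.61%) and 1 downwards (0.152%). Between DKO and KO, 5 of 672 were higher (0.744%) and 3 lower (0.446%), and between DKO and WT 4 of 636 were higher (0.629%) and 1 lower (0.157%). The median log2 ratios of all genes were 0.16, -0.13 and 0.00. Mpo stood at 4575 CPM in KO, 7486 in DKO and 5382 in WT very high cells, and Ctsg at 7942, 6420 and 4263 CPM. Cebpe stood at 192, 296 and 303 CPM, and S100a8 at 2935, 3347 and 2955 CPM. In these sums the 4 genes were within 2-fold of each other in every pair of libraries. The sums were not matched for Elane. The Elane bins of 70 to 100 and of 100 or more held 49 and 43 cells in KO and 10 and 25 in DKO. S100a8 was higher in KO than in DKO in both bins, at 248.7 against 31.95 CPM and at 6214 against 4548 CPM. Between KO and DKO the order of Mpo, Ctsg and Cebpe was the same in both bins as in the sums. The genotype values that follow are also not matched for Elane.

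The genes past 2-fold between KO and WT were Ifitm1, Ifitm3, the tubulin gene Tubb4b and the predicted gene Gm10709, all higher in KO, and Camp, lower in KO. All genes in this comparison past 2-fold were named after their values were seen. Ifitm1 stood at 536 CPM in KO and 117 CPM in WT (4.59-fold, 3.36 to 6.45), and at 67.9 CPM in DKO, which was 7.88-fold lower than in KO (6.14 to 10.3). Per cell its median was 3.80 UMIs per 10000 in KO (0 to 30.9), 0.349 in DKO (0 to 3.66) and 0 in WT (0 to 11.2), so the ranges overlapped. Ifitm3 stood at 457 CPM in KO, 157 in DKO and 125 in WT. In moderate cells too both genes were highest in KO, with Ifitm1 at 1821, 468 and 592 CPM in KO, DKO and WT and Ifitm3 at 944, 423 and 458 CPM. Of the Camp UMIs of WT, 89.5% came from 1 of 17 cells.

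Past 2-fold between DKO and KO were, besides lower Ifitm1, Ifitm3 and Gm10709, higher Xist, Chil3, Slpi, Ly6c2 and the ribosomal protein gene Rpl29. Ly6c2 has a near-identical neighbour in Ly6c1 and ribosomal protein genes have near-identical copies, so counting could split their UMIs and both values are uncertain. Xist, the X inactivation transcript, stood at 663 CPM in DKO and 0 in KO and WT very high cells, so sex differs between DKO and both other libraries and cannot be told apart from genotype. Slpi, a secreted inhibitor of elastase and cathepsin G, stood at 400 CPM in DKO, 145 in KO and 184 in WT. Ly6c2 stood at 1968 CPM in DKO, 907 in KO and 1807 in WT, against 86.4, 296 and 130 CPM in the moderate cells of these libraries. Its order over the libraries thus differed between the 2 classes. Of the Chil3 UMIs, 50% came from 1 DKO cell. Past 2-fold between DKO and WT were higher Xist, Slpi, Hp and Tubb4b and lower Camp. Lcn2, with a mean below 200 CPM, stood at 251 CPM in KO, 76.4 in DKO and 20.4 in WT very high cells. It was found in 92 of 92 KO cells, 28 of 35 DKO cells and 5 of 17 WT cells, and after thinning in 65.2% (54.6 to 74.9), 28.6% (14.6 to 46.3) and 11.8% (1.46 to 36.4) of KO, DKO and WT cells. Hp stood at 623, 846 and 399 CPM in very high cells of KO, DKO and WT and at 272, 111 and 60.7 CPM in moderate cells.

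**Figure D5:**
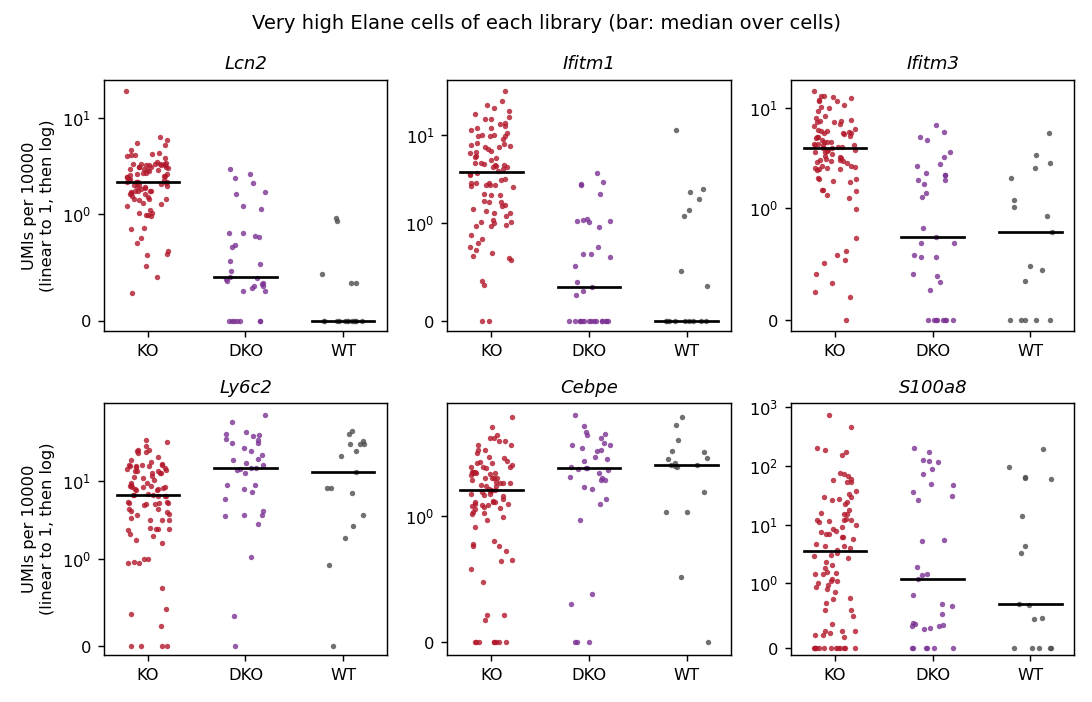
UMIs per 10000 of 6 genes in each very high cell of the KO, DKO and WT libraries (vertical, linear to 1 and log above), with the median over cells as a bar. Lcn2, Ifitm1 and Ifitm3 have higher medians in KO than in DKO and WT, while Ly6c2, Cebpe and S100a8 overlap widely between libraries.

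Cycling was read on cells thinned to 5000 UMIs, where a cell was called cycling if more than 1% of its UMIs came either from the S phase list or from the G2 and M phase list. In KO 6.52% of very high cells (2.43 to 13.7), 6.96% of moderate cells and 20.2% of the other cells were cycling. In DKO the shares were 25.7% of very high cells (12.5 to 43.3), 25.6% of moderate cells and 19.95% of the others. In WT 0 of 17 very high cells were cycling, which allows a share of up to 17.6% by a count of 3, against 16.8% of moderate cells and 13.3% of the others. Very high and moderate cells thus differed by less than the counting interval in KO and DKO. The threshold sets the level, since over 0.5% of UMIs 84.8% of very high and 84.6% of moderate KO cells were cycling, and over 2% none were in either class. All KO very high calls came from the G2 and M phase list. The median share of UMIs from that list was 0.62% in very high, 0.58% in moderate and 0.44% in other KO cells. For the S phase list the medians were 0.44, 0.48 and 0.38%. In KO the order against the other cells was thus the reverse of that by calls. The mitotic genes Ube2c and Ccnb1 stood at 274 and 90.1 CPM in KO, 241 and 94.5 CPM in DKO and 40.8 and 11.7 CPM in WT very high cells.

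Markers of the erythroid and lymphoid lineages had low sums in the very high cells, but the B lineage sum was not below that of moderate cells in every library. The 15 listed erythroid genes summed to 55.2, 40.3 and 14.6 CPM in KO, DKO and WT, with Cldn13 among those at 0 in KO. They summed to 9164, 7509 and 20993 CPM in erythroid-like cells. Those cells were chosen by Klf1, Car1 and Ermap, which are on the list, so their sums are high by selection. The B lineage list summed to 35.2, 65.8 and 49.5 CPM, with Cd79a, Vpreb3, Ebf1, Pax5, Rag1 and Mzb1 among those at 0 in KO. The T, NK and innate lymphoid list summed to 3.33, 8.49 and 0 CPM, with 9 of 10 genes at 0 in KO. The macrophage list summed to 13.03, 69.0 and 84.5 CPM in very high cells of KO, DKO and WT and to 1.08, 1.28 and 1.20 CPM in moderate cells. Most of it was Vcam1, an adhesion molecule, at 11.4, 64.8 and 81.6 CPM in very high cells, while C1qa and Cd5l were at 0 in all 3. The eosinophil list summed to 11.1, 30.8 and 61.2 CPM in very high and 4.74, 12.1 and 6.61 CPM in moderate cells, led by Siglecf at 11.1, 26.5 and 49.5 CPM in very high cells, with Prg2, Prg3, Ear2, Ccr3 and Il5ra at 0 in KO. The basophil and mast cell list summed to 146, 217 and 187 CPM, and the megakaryocyte list to 202, 211 and 155 CPM. The lymphoid-primed list summed to 25.5, 103 and 67.0 CPM, the stem cell list to 575, 110 and 160 CPM, of which Ifitm1 was the only measured gene, and the endothelial and stromal list to 26.9, 87.0 and 93.2 CPM. The mature neutrophil list summed to 4616, 4352 and 5208 CPM, mostly from S100a8, S100a9 and, in WT, Camp, and the monocyte-dendritic list to 1092, 2270 and 1964 CPM, led by Ly6c2.

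Free RNA was gauged in the erythroid-like cells of KO, where Elane stood at 28.9 CPM, S100a8 at 7.81, Cebpe at 0.516 and Wfdc21 at 0.775, each below 1% of its level in very high cells. In erythroid-like cells of DKO and WT S100a8 stood at 33.6 and 39.1 CPM and Elane at 5.14 and 3.91 CPM. The mature neutrophil list summed to 17.5, 98.5 and 91.8 CPM in erythroid-like cells of KO, DKO and WT. Very high and moderate cells were left out of the erythroid-like cells, so the Elane level of the latter was kept low in part by selection. The part of free RNA in the results was not tested. The very high cells were deep, with 56 of 92 in KO, 28 of 35 in DKO and 11 of 17 in WT above the 90th percentile of UMIs of their library. Their median doublet scores were 0.0290, 0.0758 and 0.0891, against 0.0307, 0.0592 and 0.0645 in moderate cells, and 1 KO, 0 DKO and 0 WT cells were among the highest scores of their library. Median mitochondrial shares were 2.63, 2.59 and 2.77% in very high and 2.68, 2.62 and 2.84% in moderate cells.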

How the data were processed

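The authors deposited raw UMI counts as 1 table of 14721 genes by 21251 cells from 3 libraries, and all values come from it. Per the submitters' processing notes the tools were bcl2fastq, Cell Ranger and Seurat with the mm10 build, and versions, roles and filters on cells are not given in the sources used here. A second deposited table of normalized values was not used. Cells were assigned to libraries by their column names. All deposited cells were kept.

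Counts were summed per class and library and divided by the class total. Genes with a mean of at least 50 CPM over the pair (200 CPM between genotypes) counted as measured, and 2-fold as different. Ratios carry exact conditional binomial, levels exact Poisson and shares Clopper-Pearson intervals at 95%. Erythroid-like cells had at least 10 erythroid marker UMIs per 10000 and were taken only from cells that were neither very high nor moderate. Named genes were the 15 highest and 15 lowest KO ratios, without globin, ribosomal, sex-linked, predicted and mitochondrial genes. Added to these were, from each of the 19 gene lists, at most 4 genes of largest ratio, and the marker genes, Spop and Myd88. Other genes were named after their values were seen. The members, the 19 gene lists and the 14 marker lists were chosen with earlier results of these data known, and 22 listed genes are not in the table. Some genes sit on more than 1 list.

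Doublets were scored per library with Scrublet in scanpy 1.11.5. Its automatic calls covered 0.102% of KO, 0.0489% of DKO and 0.0245% of WT cells, too few to be usable, so no cell was removed. Scaling by TMM came from edgeR 4.0.16, and other steps used numpy 2.4.6, scipy 1.17.1, pandas 2.3.3 and matplotlib 3.10.9. The ratio step was tested on simulated data with the depth of KO very high and moderate cells, over 2446 genes. All 23 genes set at 0.25-fold, 25 at 0.4-fold, 30 at 2.5-fold and 30 at 4-fold were counted, and 0 of 40 at 0.8-fold, of 40 at 1.25-fold and of 2258 unchanged genes were. The simulation held counting error alone.

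Alternatives were other Elane thresholds, moderate cells with more Elane, other scalings, level and fold minimums, equal weight for each cell, equal depth, pooled libraries and removal of high doublet scores. Leaving out single calprotectin-rich cells and cells of shared barcodes was chosen after seeing the data. No replicate could be left out, since each genotype has 1 library.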

Additional observations from a re-analysis of the deposited data

How the results depend on the processing

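The 53 higher and 16 lower genes of KO became 86 and 39 with Elane of at least 100 per 10000, 29 and 8 against moderate cells with at least 20 Elane UMIs, 105 and 46 at a mean of 20 CPM, 35 and 10 at 100 CPM, 117 and 92 at 1.5-fold and 19 and 6 at 3-fold, and 33 were lower at equal depth. Lists with a median past 2-fold numbered 3, against 5 with Elane of at least 100 and 1 against moderate cells with at least 20, where the primary granule and the stem list fell within 2-fold (medians 0.76 and -0.65). The KO share of very high cells was 3.62% at 50 and 0.874% at 100 Elane UMIs. Without thinning, 85.9% of KO very high cells had a UMI of S100a8, 91.3% of Cebpe and 15.2% of Irf8. Over 0.5% of UMIs 84.8% of very high and 84.6% of moderate cells were cycling, and over 2% 0% in both. The cause was not tested, beyond the change in cells, genes or threshold that each setting makes. TMM moved the median log2 ratio of all genes to 0.03, with 60 genes higher and 14 lower.

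Of the 87 named genes and 19 lists compared, none past 2-fold changed sign under any alternative that gave a ratio; Irf8 had no UMI with Elane of at least 100 and gave none there. The 28 gene values that fell within 2-fold were those of Gfi1, Hp, Ifngr1, Trem3, Tmed3, Ifitm3, Emb, Fabp5, Hmgn1, Lgals1, S100a10, Samsn1 and Tmsb10, each under at least 1 alternative, and 5 list medians did so for the primary granule and stem lists. No paired analysis was possible because each genotype has 1 library and no replicate number. Without replicates, differences between libraries hold genotype, animal, sex and preparation together. The 17 WT cells limit WT values most.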

Other observations

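Several genes outside the lists described above were also at least 2-fold higher in KO very high cells, and those given here were chosen after their values were seen. Among genes that handle peroxides and glutathione, Gsr, glutathione reductase, stood at 409 CPM in very high cells and 158.9 CPM in moderate cells, and Prdx5, a peroxiredoxin, at 589.8 against 241 CPM. Alas1, the first enzyme of haem synthesis outside the erythroid lineage, stood at 239.6 against 69.32 CPM. Lta4h, the hydrolase that makes leukotriene B4, stood at 198 against 75.04 CPM, and Anxa1, annexin A1, at 308.1 against 90.67 CPM. These values come from 1 library and carry no test.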
